A study of Mus musculus with 16 samples.

Results

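H3K4me3, the trimethylation of lysine 4 of histone H3, was profiled by chromatin immunoprecipitation and sequencing in hematopoietic stem cells of young and old mice, and the comparison of the 2 ages is described here. The 4 libraries of this mark were taken by their titles from the 16 libraries of the series. The other 12 libraries, 6 each for H3K27me3 and H3K36me3, were used only for reference regions, which were taken from 5 libraries of each mark. All mice were C57BL/6 and are described as wild type in the series' design. Bone marrow was the source of the cells, and the sort was SP-KSL-CD150+, a gate of dye efflux and surface markers that enriches long-term stem cells. The young group was 4 months old and held replicates 7 and 8. The old group was 24 months old and also held replicates 7 and 8. In the labels each library is a technical replicate, its number is that of a biological replicate, and it is not said which came from the same animals or whether animals were pooled. A p-value therefore measures the spread between these libraries, which may be partly technical. Titles carry a further number that the labels do not explain, 18 for both replicates 7, 21 for young replicate 8 and 19 for old replicate 8. The markers of the sort could not be checked, because regions were not matched to genes here.

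H3K4me3 is placed by the SET1 and MLL methyltransferase complexes and lies around the start sites of active and poised genes. Most sites carry a peak of a kilobase or more over the first nucleosomes, and a minority carry broad domains that are known to lie at genes of cell identity. In stem cells some promoters carry H3K4me3 together with H3K27me3, the mark of Polycomb repression, and such sites are called bivalent. H3K36me3 is laid down over the bodies of transcribed genes. The question that the design puts is how the H3K4me3 landscape of stem cells differs between 4 and 24 months.

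Each library had its own peak list, as the authors deposited it, with a position and a score per peak but no read counts. Peaks on the 19 autosomes were used, with positions given on mm9, a build of the mouse genome. The number of autosomal peaks was 15788 in young replicate 7, 15730 in young replicate 8, 18080 in old replicate 7 and 19306 in old replicate 8. No peaks of a list overlapped each other and no pair of lists was identical. Read depth is unknown, so no interval for counting error can be given, and the number and width of peaks in a list can depend on depth and on enrichment as well as on the mark in the cells. With 2 libraries against 2 the smallest p of an exact two-sided permutation test is 0.33, which every non-overlapping comparison below reaches and none can pass. A depth difference between the libraries was not tested and cannot be told apart from age.

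The old lists held more peaks, and the added peaks were narrow and low in score. The mean number was 18693 ± 867 at 24 months and 15759 ± 41.01 at 4 months (SD, n = 2 each), which is 0.25 higher in old on the log2 scale (exact permutation p = 0.33). The total length under peaks was 28.7 and 26.1 Mb in the young and 26.4 and 31.6 Mb in the old lists, so it overlapped between the ages. Peaks with a score under 200 numbered 143 and 40 in young replicates 7 and 8, against 1525 and 2792 in old replicates 7 and 8. Both old lists thus held many times the number of either young list in this class, and old replicate 8 held the most. Peaks with a score of 200 to 500 numbered 2154 and 1978 in the young and 2803 and 2824 in the old lists. Between 500 and 1000 the numbers were 1509 and 1543 in the young and 1688 and 1736 in the old lists. The ages drew closer with each step up in score, and from 1000 to 3100 the counts were 2602, 2703, 2758 and 2717, in the order young replicates 7 and 8, old replicates 7 and 8.

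At the top of the score scale the order of the ages was the other way round. Scores of 9087 to 9360 peaks per list were tied at exactly 3100, and 106 to 150 peaks per list lay above it, up to 3233.06. All peaks at or above 3100 were treated as 1 tie, called the ceiling here. The ceiling held 9380 and 9466 peaks in the young lists and 9306 and 9237 in the old lists. The old lists had slightly fewer peaks there, a log2 ratio of -0.02, and the ages did not overlap. As a share of the list the ceiling held 59.4 and 60.2% of young peaks and 51.5 and 47.8% of old peaks.

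Scores at the same rank were alike in the 4 lists until their tails. At rank 12000 the score was 994 and 1085 in the young and 1026 and 985 in the old lists, so the ages overlapped. At rank 15000 it was 256, 309, 312 and 314, with young replicate 7 lowest. The lowest score was 82.9 and 115.8 in the young and 80.3 and 80.04 in the old lists. The young lists ended near the rank where their score curves turned sharply down, and the old curves ran on past it.

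**Figure D1:**
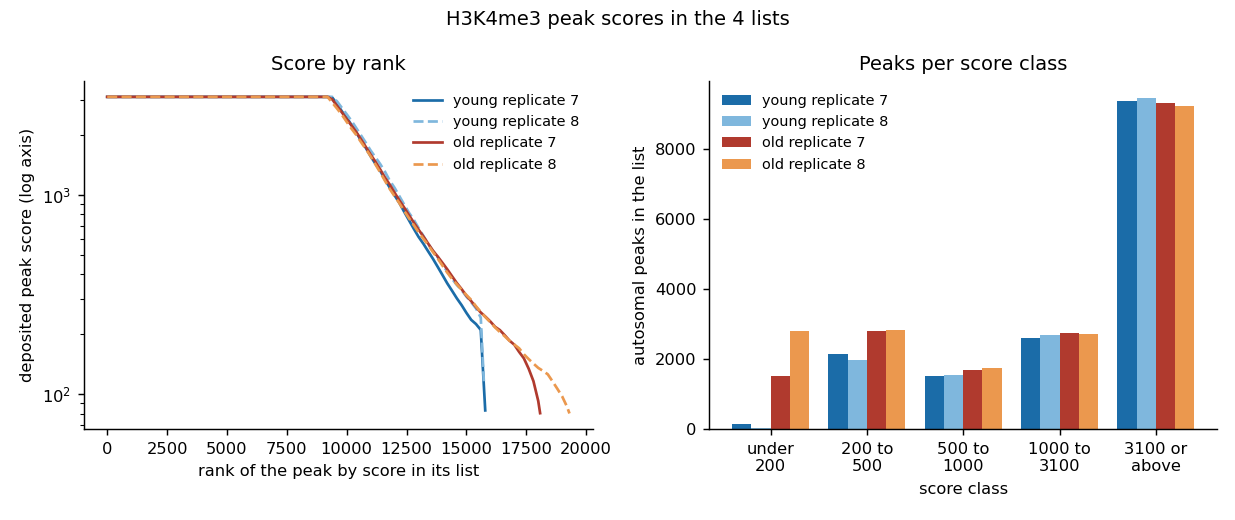
Left, deposited score (log axis) against the rank of the peak in its list, 1 line per library. Right, number of autosomal peaks in each score class, 1 bar per library. The curves lie together over the first 12000 ranks, and the class under 200 holds 1525 and 2792 peaks in the old lists but 143 and 40 in the young lists.

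Old peaks were narrower when the full lists were compared, most of all at the narrow end. The median width was 1681 and 1532 bp in the young and 1334 and 1472 bp in the old lists. Both old medians lay below both young ones, with 1403 ± 97.6 bp in old and 1606.5 ± 105 bp in young lists (SD, n = 2 each) and a log2 ratio of -0.20 (exact permutation p = 0.33). At the 5th percentile of width the log2 ratio was -0.50, and at the 25th percentile it was -0.43. At the 75th percentile it was -0.11 and at the 95th -0.05, and in both the ages overlapped. Peaks under 700 bp numbered 606 and 1608 in the young and 3993 and 3591 in the old lists. The young lists differed from each other in this count by more than the old ones did. At the broad end, peaks of 5 kb or more numbered 148 and 108 in the young and 116 and 215 in the old lists. These counts of broad peaks overlapped between the ages.

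The difference in width was not seen at equal numbers of top-scoring peaks. With the 15730 highest-scoring peaks of each list, the number in the smallest list, the median width was 1686.5 and 1532 bp in the young and 1468 and 1690 bp in the old lists. Each age then held a wide and a narrow list, and the log2 ratio of -0.03 came with an exact permutation p of 1. At the 12000 highest-scoring peaks the log2 ratio was also -0.03. At the ceiling score the medians were 2092 and 1928 bp in the young and 1850 and 2109 bp in the old lists. Young replicate 7 and old replicate 8 were the wide lists in each of these comparisons, and young replicate 8 and old replicate 7 the narrow ones.

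One feature of the widths kept its order at equal numbers. The 95th percentile of width divided by the median width, a measure of how far the broad tail reaches, was 1.88 and 1.89 in the young and 1.96 and 1.99 in the old lists among peaks at the ceiling score. Both old lists lay above both young lists, with a log2 ratio of 0.07 (exact permutation p = 0.33). Among the 15730 top peaks of each list the mean ratio was 2.13 ± 0.000380 in old and 2.06 ± 0.0345 in young lists (SD, n = 2 each), again without overlap. As a difference in bp the tail did not separate the ages. At the ceiling score the 95th percentile lay 1838 and 1707 bp above the median in the young and 1784 and 2078 bp above it in the old lists. This ratio was chosen after its values were seen.

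**Figure D2:**
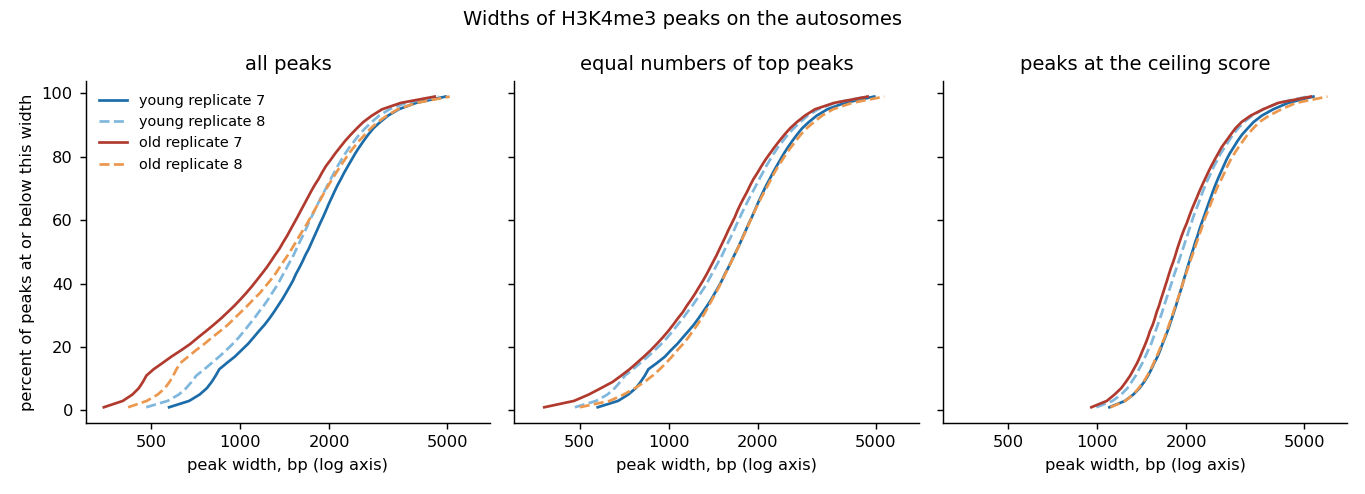
Percent of peaks at or below each width (log axis, bp), 1 line per library, for all peaks, for equal numbers of top-scoring peaks and for peaks at the ceiling score. In the first panel the old curves lie to the left at narrow widths, with medians of 1334 and 1472 bp against 1681 and 1532 bp. In the other panels each age has 1 narrow and 1 wide list.

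Peaks of the old lists stood closer together, and this too was a feature of the full lists. The median gap from a peak to the next was 47427 and 47050 bp in the young and 40406 and 38430 bp in the old lists, a log2 ratio of -0.26 (exact permutation p = 0.33). Gaps under 1 kb numbered 513 and 675 in the young and 1592 and 1530 in the old lists. Gaps under 5 kb numbered 1515 and 1621 in the young and 2779 and 2978 in the old lists. They made up 9.96 ± 0.502% of gaps in young and 15.4 ± 0.0380% in old lists (SD, n = 2 each). With 15730 peaks per list the counts of gaps under 5 kb were 1494, 1621, 1727 and 1458, and the ages overlapped. The median gap was then 47481 and 47050 bp in the young and 47660 and 48570 bp in the old lists, slightly wider in old, with a log2 ratio of 0.03. The direction of the difference in spacing thus changed between all peaks and equal numbers of peaks.

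Where the added old peaks lay was read from regions shared by the lists. Peaks of the 4 lists were merged where they overlapped or abutted, giving 20031 regions, of which 14016 (70.0%) were held by all 4 lists. A list holds a region when at least 1 bp of it lies under a peak. In each list 14016 peaks were the longest peak of a shared region, and the remaining peaks fell into 4 places. Peaks over 5 kb from any shared region numbered 1192 and 976 in the young and 2259 and 3443 in the old lists. They made up 60.2% of the 2934 peaks by which the mean old list exceeded the mean young list. Further peaks inside shared regions numbered 316 and 531 in the young and 1211 and 644 in the old lists, and made up 17.2% of the difference. Peaks in other regions up to 1 kb from a shared region numbered 81 and 67 in the young and 234 and 597 in the old lists, or 11.6% of the difference. Those over 1 kb and up to 5 kb away numbered 183 and 140 in the young and 360 and 606 in the old lists, or 10.96%. The old lists did not share 1 pattern, since further peaks within shared regions were most frequent in old replicate 7 and peaks outside them in old replicate 8.

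**Figure D3:**
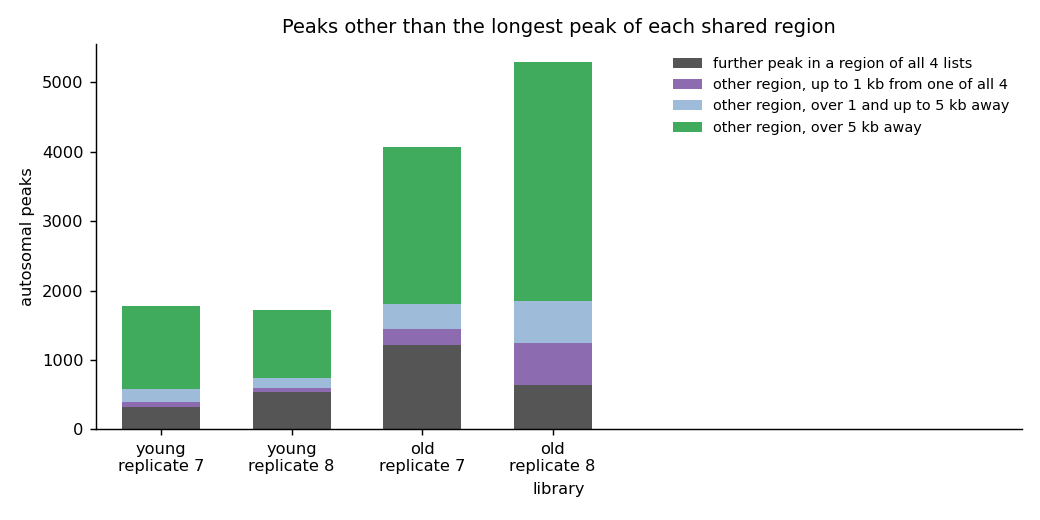
Number of autosomal peaks in each library, stacked by place, leaving out the longest peak of each region held by all 4 lists. Peaks over 5 kb from a shared region form the tallest part in each list, with 2259 and 3443 in the old and 1192 and 976 in the young lists.

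Peaks of the old lists below rank 15730 overlapped the young lists only in part. Old replicate 7 had 2350 such peaks, with a median width of 469 bp and a median score of 182. Of these, 56.3% touched a peak of at least 1 young list, 67.4% touched a peak of the other old list and 21.6% touched no peak of any other list. Old replicate 8 had 3576 such peaks, with a median width of 595 bp and a median score of 153. Of these, 37.8% touched a young peak, 36.2% touched the other old list and 50% touched no other list. The low-scoring peaks of old replicate 8 were thus matched less by the other old list than those of old replicate 7.

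More regions were held by both old lists and no young list than the reverse, and the excess was not seen at equal numbers. The old-only regions numbered 770 and the young-only regions 44. With equal numbers of 15730 peaks the counts were 218 and 263, at the 12000 highest-scoring peaks 158 and 152, and with a score of at least 500 they were 202 and 164. Regions of a single list numbered 2243 for old replicate 8, 667 for old replicate 7, 223 for young replicate 7 and 152 for young replicate 8. Regions of old replicate 8 alone therefore outnumbered the regions held by both old lists and no young list. The median length was 811 bp for old-only and 854 bp for young-only regions, against 2031 bp for regions of all 4 lists.

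A few old-only regions had high scores. The region at chr9:92170215-92173103 was covered over 2734 and 2858 bp in the old lists and had the ceiling score in both. The region at chr6:149514077-149515351 was covered over 1259 and 1164 bp, also at the ceiling in both old lists. The region at chr2:54288245-54289932 was covered over 1097 and 1688 bp at scores of 1590 and 1076, and the one at chr12:62623471-62624795 over 905 and 1325 bp at scores of 1516 and 1161. The latter pair each lay under H3K27me3 in all 5 libraries used for that mark. The region at chr18:78319300-78321206 was covered over 1769 and 1763 bp at scores of 1779 and 1419. This region and both old-only regions at the ceiling lay under H3K27me3 in 0 of these 5 libraries. Of the 5 old-only regions named, 3 were thus without H3K27me3. Young-only regions of the full lists did not reach such scores. The one of highest rank, at chr5:21240734-21241748, was covered over 963 and 810 bp at scores of 653 and 572. Since the old lists held more low-scoring peaks, a region had to be free of more such peaks to count as young-only. At the 12000 highest-scoring peaks, where lists were equal in number, 152 regions were young-only and 158 old-only.

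The lists of 1 age did not resemble each other more in the sequence they covered than lists of different ages. The Jaccard index, the shared over the joint covered length, was 0.778 between the young lists and 0.748 between the old lists. Between the ages it ran from 0.734 to 0.779. In the ranking of scores over the 14016 shared regions, the Spearman correlation was 0.932 within young and 0.928 within old, and 0.893 to 0.916 between the ages. These correlations run across regions, which are not independent and share their sequence and mappability, so they are a description.

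The 14016 shared regions had nearly the same length at both ages. The median covered length was 1799 and 1647 bp in the young and 1585 and 1811.5 bp in the old lists, and the ages overlapped. Limma tested the covered length of 16746 regions covered in at least 2 lists, on the log2(bp + 200) scale, which understates the change of short regions. At an adjusted p under 0.05 it made 0 calls, or 0% of the regions tested, with a smallest Benjamini-Hochberg adjusted p of 0.349. This count depended on the fit, since limma without the trend called 630 regions, 592 of them with more coverage in old. With a library left out it called 59 (without young replicate 7), 17 (without young replicate 8), 99 (without old replicate 7) or 15 (without old replicate 8). At an unadjusted p under 0.05, 1019 regions (6.09%) had more and 195 (1.16%) had less coverage in the old lists. Regions without a peak in the other age pass the filter through 1 age alone, and they made up 768 of the 1019 and 44 of the 195, so these counts largely restate the old-only and young-only regions. At the 15730 highest-scoring peaks limma again called 0, and the unadjusted counts were 375 more and 413 less, so the excess of longer regions was not seen there.

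Among regions of all 4 lists limma called 12 of 14016 (0.0856%), of which 11 were longer in old and 1 was shorter. At an unadjusted p under 0.05, 349 (2.49%) were longer and 205 (1.46%) shorter. This fit is an alternative that leaves out regions absent from a list. In all 12 the ages did not overlap in covered length, so leaving out a library could not turn the direction. Which of the 12 were still called depended on the library left out. Genes were not assigned to these regions, since no mm9 annotation was used here.

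The region with the smallest adjusted p lay at chr3:144421772-144424818. It was covered over 802 and 701 bp in the young and 2477 and 3047 bp in the old lists, a limma log2 change of 1.63 with an adjusted p of 0.00123 among regions of all 4 lists. Its scores were 199.6 and 248 in the young lists and 2940 and 3100 in the old lists. It lay under neither H3K27me3 nor H3K36me3 in any of the 5 libraries used for each mark. At chr16:33755232-33758773 covered length was 1729 and 986 bp in the young and 3345 and 3429 bp in the old lists (limma log2 change 1.25, adjusted p = 0.0125 in the same fit). Its score was 430 and 494 in young and at the ceiling in both old lists. At chr19:20675204-20678651 it was 1648 and 1387 bp in young and 2898 and 3448 bp in old lists (0.97 on the log2 scale, limma adjusted p = 0.0188). Each of these regions was shorter and lower in score in both young lists than in either old list.

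Other called regions were already long at 4 months. The region at chr6:56869602-56874752 was at the ceiling in all 4 lists and was covered over 3139 and 2699 bp in the young and 4641 and 5039 bp in the old lists (limma log2 change 0.69, adjusted p = 0.0393). The region at chr15:67003822-67014014 was covered over 6368 and 5448 bp in the young and 8321 and 10193 bp in the old lists (log2 change 0.63, limma adjusted p = 0.0490). The single called region that was shorter lay at chr6:136886003-136890694. It was covered over 4221 and 4122 bp in the young and 2271 and 2630 bp in the old lists (log2 change -0.73, limma adjusted p = 0.0393). It held 2 peaks in each old list, parted by gaps of 985 and 822 bp. Young replicate 8 held 3 peaks there, with a widest gap of 407 bp, and young replicate 7 held 1.

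**Figure D4:**
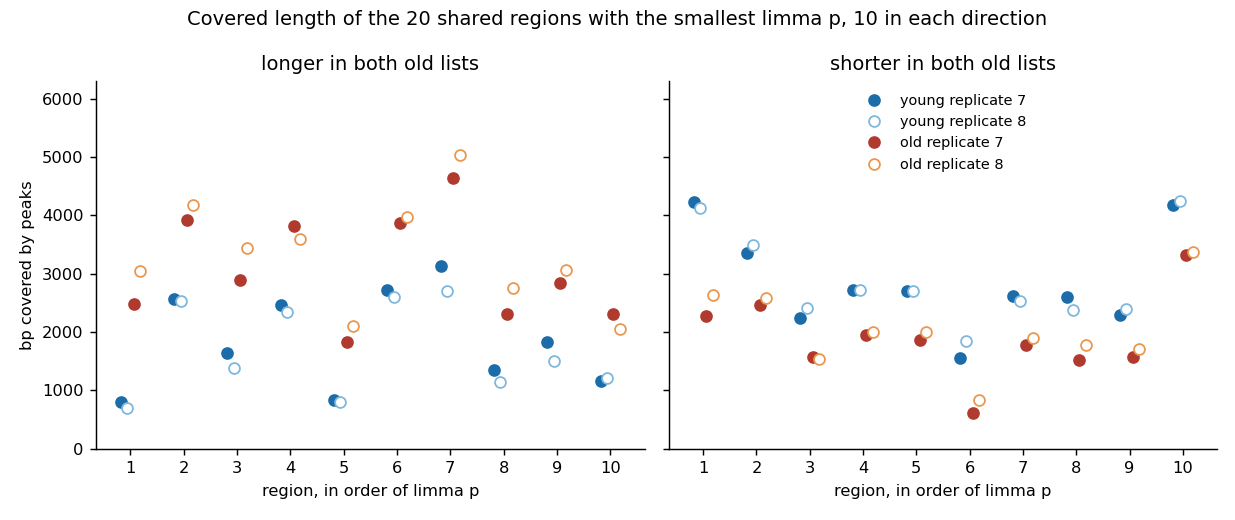
Bases covered by peaks in each library for 20 regions of all 4 lists, 10 longer and 10 shorter in both old lists, in order of limma p from left to right. The first longer region has 802 and 701 bp in the young and 2477 and 3047 bp in the old lists, and the first shorter region has 4221 and 4122 bp against 2271 and 2630 bp.

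The 10 named regions that were longer in old differed by 0.53 to 1.63 on the log2 scale and the 10 that were shorter by 0.32 to 1.04, in size. In the test over all 16746 regions the limma adjusted p of all 20 was 0.349. At chr1:173367121-173371482, at the ceiling throughout, covered length was 2574 and 2531 bp in the young and 3921 and 4170 bp in the old lists. At chr14:61351280-61353274 it was 1555 and 1843 bp in the young and 616 and 835 bp in the old lists, with scores of 725 and 2008 in young and 330 and 263 in old.

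Among the longest shared regions, more were longer than shorter in both old lists. Regions were grouped by their mean covered length over the 4 lists, and 180 reached 5 kb. Their median covered length was 5708.5 and 5484 bp in the young and 5659.5 and 6276.5 bp in the old lists, so in bp the ages overlapped. Divided by the median over all shared regions of the same list, it was 3.17 and 3.33 in the young and 3.57 and 3.46 in the old lists. That division takes out a difference in width only where it is proportional to length. A difference equal in bp would instead raise the scaled length of long regions in the narrower list. On that scale 78 of the 180 (43.3%) were longer in both old than in both young lists, and 1 (0.556%) was shorter. Over all 14016 shared regions the shares were 19.2% longer and 16.4% shorter. In bp, without that scaling, 51 of the 180 (28.3%) were longer in both old lists and 12 (6.67%) shorter, where over all shared regions 12.7% were longer and 16.2% shorter.

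Regions of 3 to 5 kb lay between the longest and the rest. Their number was 1115, and their median over the list median was 1.99 and 2.04 in the young and 2.15 and 2.08 in the old lists. Scaled by the list median, 30.4% were longer in both old lists and 10.6% shorter, and in bp 21.9% were longer and 11.1% shorter. Regions under 1 kb showed the reverse, with 15.2% longer and 20.1% shorter on the scaled lengths. The pairs of lists differed in size. Scaled by the list median, 92.2% of the 180 longest regions were longer in old replicate 7 than in young replicate 7, but 55.0% were longer in old replicate 8 than in young replicate 8. The same-age pairs also differed, with 67.2% longer in young replicate 8 than in young replicate 7 and 25% longer in old replicate 8 than in old replicate 7. The 2 lists with the narrower peaks at equal numbers, young replicate 8 and old replicate 7, each had the higher scaled length of their age.

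**Figure D5:**
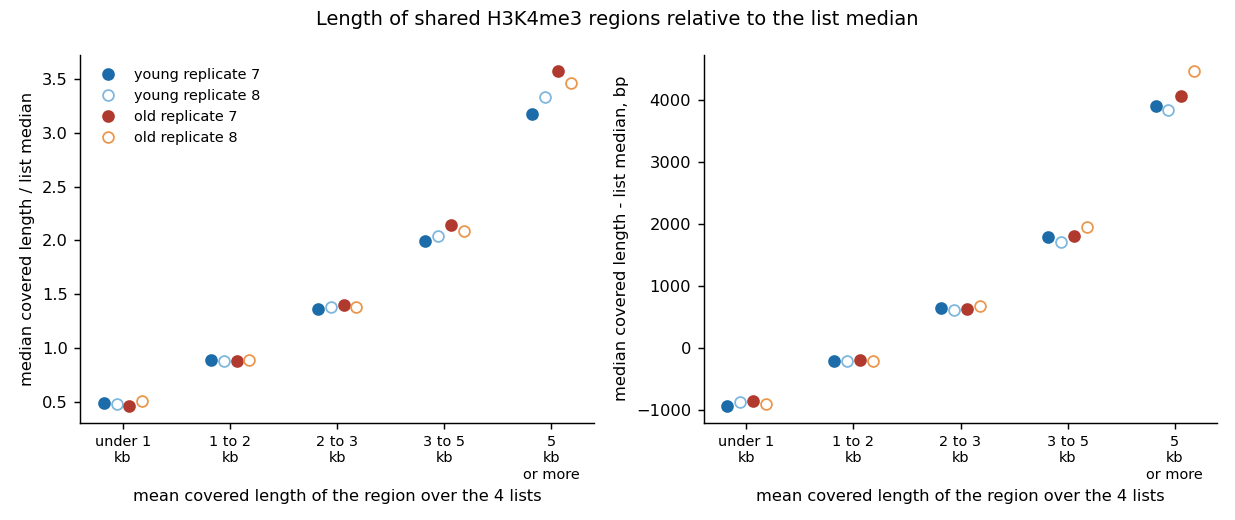
Median covered length of shared regions in 5 classes of mean length, 1 point per library, divided by the list's median over all shared regions (left) or minus that median in bp (right). In the class of 5 kb or more the scaled values are 3.57 and 3.46 in the old and 3.17 and 3.33 in the young lists, and the differences in bp are 4074.5 and 4465 against 3909.5 and 3837.

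The longest H3K4me3 region was made up of several peaks in every list. It lay at chr8:97499884-97518766 and held 4 and 3 peaks in the young and 7 and 3 in the old lists. Over all shared regions, 293 and 493 regions held 2 or more peaks in the young lists and 1080 and 609 in the old lists. As a share of shared regions this was 2.09 and 3.52% in young and 7.71 and 4.35% in old. Regions with a single peak in both young lists and 2 or more in both old lists numbered 100, and the reverse numbered 16. The gaps were small, with a median of 123 and 104.5 bp in old replicates 7 and 8 over these 100 regions. With only gaps of at least 500 bp counted, 1 region was split in old and 0 in young. When each list was limited to 15730 peaks the counts were 34 and 23. The region with the widest gaps lay at chr19:46574060-46583098, was whole in both young lists and was parted by 702 and 814 bp in the old lists, while its covered length of 8071, 7522, 7944 and 7685 bp overlapped between the ages.

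Peak edges and centres differed about as much between libraries of different age as between libraries of 1 age. In 12272 regions with exactly 1 peak in each list, the left edge of the old mean lay a median of 12 bp inside the young one and the right edge 17 bp inside it. Taken pair by pair, the left edges of an old and a young list differed by a median of -73 to 97 bp, against 68.5 bp between the young lists and -101 bp between the old lists. The median shift of the centre between the age means was -1.75 bp, and single pairs of different age had a median absolute shift of 84 to 100.5 bp, against 96 and 86.5 bp for the same-age pairs. The median width difference over the 4 old-young pairs ran from -206 to 155 bp, while it was -140 bp between the young lists and 215 bp between the old lists. Centres lay within 100 bp of each other in 49.9 to 58.2% of regions for pairs of different age, and in 51.8 and 56.4% for the same-age pairs.

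The added old peaks were spread over all autosomes. The mean number of peaks in old over that in young lists was 1.15 to 1.22 on the 19 chromosomes. In the share of peaks on a chromosome the ages did not overlap for 8 of 19 chromosomes (42.1%), 4 higher and 4 lower in old. The largest difference was 0.156 percentage points, on chromosome 7, where the share was 7.38 and 7.36% in the young and 7.32 and 7.11% in the old lists. By the exact permutation test no chromosome had a Benjamini-Hochberg adjusted p below 0.792. With 15730 peaks in every list the ratio was 0.98 to 1.03. Windows of 1 Mb with at least 1 peak numbered 1992 and 1983 in the young and 2035 and 2074 in the old lists. At the 15730 highest-scoring peaks the order of the ages was kept, with 1991 and 1983 in young and 2007 and 2020 in old, and at the 12000 highest-scoring peaks there were 1896 and 1900 against 1913 and 1916. The reach of the top peaks over such windows was thus slightly wider in both old lists at each number of peaks compared, by a log2 ratio of 0.01 at 12000 peaks.

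Shared regions under H3K27me3, which was measured in other libraries, more often had a lower than a higher score rank in both old lists. H3K27me3 regions were those held by at least 3 of 5 libraries of that mark, leaving out young replicate 1, and H3K36me3 regions likewise without young replicate 4, since those libraries stood apart from the others of their mark. Of the shared H3K4me3 regions, 2170 lay under H3K27me3, and 29.5 and 29.4% of these were at the ceiling score in the young lists, against 28.4 and 25.02% in the old lists. Of the 11846 other shared regions 73.6 and 74.2% were at the ceiling in young and 73.0 and 73.2% in old. With the ceiling taken as 1 rank, 442 of the 2170 (20.4%) had a lower rank in both old than in both young lists and 281 (12.9%) a higher one. Over all shared regions the shares were 8.37% lower and 7.49% higher. A region at the ceiling in all lists cannot differ, and more of the regions without H3K27me3 were there. Among regions below the ceiling in at least 1 list, 25.8% of those under H3K27me3 were lower and 16.4% higher, while 19.5% of those without it were lower and 20.5% higher. Old replicate 8 had the lowest ceiling share under H3K27me3 of the 4 lists, and its part in these counts was not tested.

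The share of peaks touched by H3K27me3 followed the number of peaks taken. Over all peaks it was 16.8 and 16.3% in the young and 17.9 and 17.2% in the old lists. At the 15730 highest-scoring peaks it was 16.8 and 16.3% in the young and 15.8 and 15.6% in the old lists. Both old lists lay above both young lists in the former and below them in the latter, and both comparisons had an exact permutation p of 0.33. For H3K36me3 the ages overlapped, with 4.19 ± 0.623% in old and 4.25 ± 0.447% in young lists (SD, n = 2 each). Where at least 50% of a peak had to be covered by H3K36me3, the direction turned and the ages did not overlap, with 1.12 ± 0.130% in old and 0.663 ± 0.0152% in young lists (SD, n = 2 each, exact permutation p = 0.33). The 50% share was computed on the full lists only. At the 15730 highest-scoring peaks the mean share touched at all by H3K36me3 was 4.32% in old and 4.25% in young lists, and the ages overlapped.

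The other marks varied with the length of a shared H3K4me3 region. H3K27me3 touched 30.4% of the 1620 shared regions under 1 kb and 5.00% of the 180 regions of 5 kb or more. H3K36me3 touched 1.17% and 38.3% of the same classes. Longer regions have more bases that can be touched, which moves the share up for any mark. Of the 770 old-only regions H3K27me3 touched 33.1% and H3K36me3 1.69%, values close to those of the shortest shared class. Of the 44 young-only regions H3K27me3 touched 27.3% and H3K36me3 none.

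Score ranks of shared regions were tested with limma on normal scores of the ranks within each list. At an adjusted p under 0.05 limma made 185 calls among 14016 regions (1.32%), of which 65 (0.464%) were higher and 120 (0.856%) lower in old. The direction with more calls depended on which library was left out. Of the 14016 regions 8551 were tied at the ceiling in all 4 lists, and all 185 calls came from the other 5465. At an unadjusted p under 0.05, 371 (2.65%) were higher and 462 (3.30%) lower. Of the 120 lower calls 107 were at the ceiling in both young lists, and 62 of the 65 higher calls were at the ceiling in both old lists. All ceiling regions of a list share 1 middle rank, so a step over the ceiling is a large rank difference even where scores are close. At chr3:144421772-144424818 the old scores of 2940 and 3100 stood at percentiles 32.8 and 67.1 of the shared regions. Tied ranks have almost no spread within an age, with the ceiling at percentiles 66.6 and 66.4 in the young and 67.0 and 67.1 in the old lists. Among the 4636 regions below the ceiling in at least 1 list of each age limma called only 4, all higher in old. The region with the largest rank difference lay at chr16:33755232-33758773, described above, with a limma adjusted p of 0.0122 for its rank. At chr1:15276255-15278132 the scores were 454 and 802 in young and at the ceiling in both old lists, but the limma adjusted p was 0.0969. Regions tied at the ceiling in all 4 lists had the same limma adjusted p, so this value does not set the region apart from them. At chr9:96917272-96920037 the scores were at the ceiling in both young lists and 1030 and 1176 in the old lists, with a limma adjusted p of 0.0204, while its covered length of 2647, 2440, 1706 and 2619 bp overlapped between the ages. At chr9:40125880-40129230 they were at the ceiling in young and 1451 and 1096 in old (limma adjusted p = 0.0459), and covered length was 3351 and 2873 bp in young and 1978 and 2490 bp in old lists. Changes of score and of length went together only weakly across regions, with a Spearman correlation of 0.251 over the 5465 regions below the ceiling in at least 1 list, given as a description.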

How the data were processed

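The 4 H3K4me3 peak lists, 1 per library, were used as the authors deposited them. CASAVA 1.4, MACS, SICER and the build mm9 are named in the submitters' processing notes. The aligner, thresholds, input controls and other versions were not given in the sources used here. Each deposited score has no stated unit. It was used to rank peaks within a list and to class them by fixed thresholds. Comparing score classes, or the scores of single regions, between lists takes the scores to be on 1 scale, which was not tested. The layout of the H3K4me3 and H3K36me3 lists was that of MACS, and H3K27me3 islands lay on a 200 bp grid. Peaks were called per library, and read depth is unknown.

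Ages were compared by exact two-sided permutation tests of per-list values. Regions were tested with limma 3.58.1 in R 4.3.3, with empirical Bayes moderation, a trend for covered length and Benjamini-Hochberg adjustment at 0.05. The code was first run on simulated lengths with 1 common spread and no ties. That run does not test the fits on the lengths and tied ranks of these lists. Other steps used Python 3.11.15, numpy 2.4.6, pandas 2.3.3 and scipy 1.17.1. Equal numbers took the highest scores, with ties by position.

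Named regions are the longest, those of smallest limma p in each direction, the largest rank differences, the highest-ranked regions of 1 age and the split regions with the widest gaps. The called regions among those of all 4 lists were named after their values were seen. The members, comparisons and named regions were chosen with earlier results of these data known. Annotation at hand was on GRCm38 and coordinates were not converted, so genes were not named and no sequence is shown. Alternatives covered peak number, threshold, joining, merging, pseudocount, filter, left-out libraries and the replicate block.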

Additional observations from a re-analysis of the deposited data

How the results depend on the processing

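Of the results on whole lists and counts, 89 values under other settings kept their direction or, for counts, stayed near the reported one, 39 moved and 16 changed sign. Keeping the direction does not mean keeping the size: the log2 ratio of the number of peaks was 0.0127 at a score of at least 500, that of median width was -0.024 at the ceiling score and that of the median gap was -0.0525 at a score of at least 200, a threshold chosen after seeing the data. For the number of peaks the log2 ratio was -0.0234 at the ceiling score. No value was given for it at equal numbers, which fix it. For covered length the log2 ratio of 0.08 became -0.0112 at 12000 peaks, -0.00865 at the number of the smallest list, -0.00413 at a score of at least 500, -0.0255 at the ceiling score and -0.12 within title number 18. It ran from -0.0535 (without old replicate 8) to 0.20 without 1 library. The median gap of -0.26 became 0.0302 at 12000 peaks, 0.0256 at the smallest list, 0.021 at a score of at least 500 and 0.0245 at the ceiling score. Old-only regions numbered 158 at 12000 peaks, 218 at the smallest list, 202 at a score of at least 500 and 1213 to 3013 without 1 library. Young-only regions numbered 152, 263 and 164 in the same settings, 81 where 50% of a region had to be covered and 146 to 267 without 1 library. With a library left out a region must meet 1 condition fewer, so these counts grow by construction. Limma calls of covered length numbered 12 for regions of all 4 lists, 630 without the trend and 15 to 99 without 1 library, where the lone library is assumed to vary like the other age. The 12 calls became 4 to 75 without 1 library. Calls of score rank were 4 below the ceiling and 269 to 522 without 1 library. Splits in old numbered 191 with merging within 1 kb, 34 at the smallest list, 1 with gaps of at least 500 bp and 128 to 736 without 1 library. Splits in young numbered 0 with gaps of at least 500 bp and 23 to 205 without 1 library. The share touched by H3K27me3 had a log2 ratio of 0.08, and -0.0746 at the smallest list. That for H3K36me3 was -0.02, but 0.75 with 50% of the peak covered, 0.0179 at the smallest list and -0.177 to 0.127 without 1 library. Apart from the settings built with fewer peaks or libraries, the cause was not tested. Of the named regions, 0 of 30 were called by covered length and 3 of 10 by score rank. These regions were picked because the ages did not overlap in them, so leaving out a library cannot turn their direction. Of 360 values for them under other settings 300 stayed on the same side of the threshold, mostly uncalled, 52 gained and 8 lost a call, and 0 changed direction.

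Replicate numbers 7 and 8 were not taken to pair the libraries. Over 14016 shared regions the deviations of same-numbered libraries from their age means correlated at -0.03 for covered length and 0.07 for score rank, and what a shared title number means is not explained in the labels. With the replicate block limma called 0 regions by covered length (1092 at an unadjusted p under 0.05), 0 by score rank (1048 unadjusted, and 185 calls without the block) and 32 among regions of all 4 lists, which held all of the 12.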
